A study of Mus musculus with 10 samples.

Results

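Transcripts that mark kinds of inhibitory interneuron were followed in the dentate gyrus of mice lacking Fndc5 and of wild types. They are Sst, Vip, Pvalb, Lamp5, Reln, Nos1, Htr3a, Erbb4, Lhx6 and Dlx1, taken by name (PVALB, SST, VIP, HTR3A, LHX6, DLX1, NOS1, LAMP5, RELN and ERBB4 in the table) as 10 of the 24982 rows of the deposited count table. All 10 passed the filter on low counts and belong to the 14867 genes tested. RNA came from micro-dissected dentate gyri of male C57BL/6 mice aged 10 weeks: 5 with a global Fndc5 knockout, in which no cell type is spared by design, and 5 wild types. Fndc5 encodes the membrane protein from which irisin, a hormone released by muscle, is cut. Each mouse gave 1 stranded poly(A) library of 26226375 to 43802079 counts. The labels do not say which exons were removed, nor whether the 2 genotypes were littermates.

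Interneurons of the dentate gyrus release GABA and restrain the granule neurons, the excitatory cells that make up most of this tissue. They arise in the embryonic ganglionic eminences, where Dlx factors drive the GABA fate and Lhx6 marks cells of the medial eminence, and they settle into classes known by peptides, calcium buffers or enzymes. Parvalbumin cells inhibit the cell body, somatostatin cells of the hilus inhibit outer dendrites, and cells with vasoactive intestinal peptide often contact other interneurons. Reelin, neuronal nitric oxide synthase and Lamp5 are associated with neurogliaform and related cells, though none of these 3 is confined to interneurons.

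The dissection held granule neurons: all 12 granule neuron markers were counted in every library, with Prox1, a transcription factor of these cells, at 306 to 400.4 CPM (counts scaled to library size by TMM). Fndc5 itself lay at 45.4 to 56.7 CPM in knockouts and at 69.2 to 80.3 CPM in wild types (log2 fold change -0.55, SE 0.057, edgeR adjusted p 0.000495). One library stood apart for the transcripts described here. Wild-type mouse 1 had the highest level of the 10 libraries for 7 of the 10 markers, whereas it was the highest library for 13.4% of all genes tested. The result of each marker is therefore given with that library and without it.

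None of the 10 interneuron markers differed between genotypes past the threshold (adjusted p under 0.05 over all genes tested, edgeR quasi-likelihood test), where 0.00673% of the genes tested passed, Fndc5 alone. Lower values in the knockout were found for 8 of the 10 and higher ones for 2, while 49.3% of all genes tested had lower values. The median log2 fold change of the 10 was -0.12, against 0.0016 over all genes tested. At an unadjusted p under 0.05 there were 2 markers, Vip and Dlx1, both lower. At that level 6.29% of all genes tested stood, 3.75% lower and 2.54% higher. The DESeq2 Wald test gave 0 of 10 after adjustment and these 2 before it, where 2.71% of all genes were lower. Which markers had an unadjusted p under 0.05 depended on single libraries. There were 0 without knockout mouse 2, 4 or 5, where 5.1%, 3.34% and 3.61% of all genes tested were lower at that level. Without wild-type mouse 3 they were Dlx1, Reln and Erbb4, all lower, where 3.35% of all genes tested were. For 0 of 10 markers did every knockout lie below every wild type, as 0.437% of all genes tested did, and for 0 of 10 did every knockout lie above, as 0.457% did. Without wild-type mouse 1 again 0 of 10 passed, where 0.0201% of genes tested did. The median of the 10 was then -0.06 (0.00081 over all genes tested), and 0 of 10 had an unadjusted p under 0.05, where 7.08% of all genes tested did (4.15% lower, 2.93% higher). Lower values were again found for 8 of 10, against 49.6% of all genes tested, but these 8 include Sst at -7.6e-05 and Lhx6 at -0.02. In each genotype mouse 1 was the highest of its group for 8 of 10 markers, so neither count of lower values rests on 10 separate observations. Without wild-type mouse 1 no marker had all knockouts below or all above the wild types, as 0.915% and 0.935% of all genes tested did. In whole tissue, fewer cells of a class and less of its RNA per cell cannot be told apart.

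**Figure D1:**
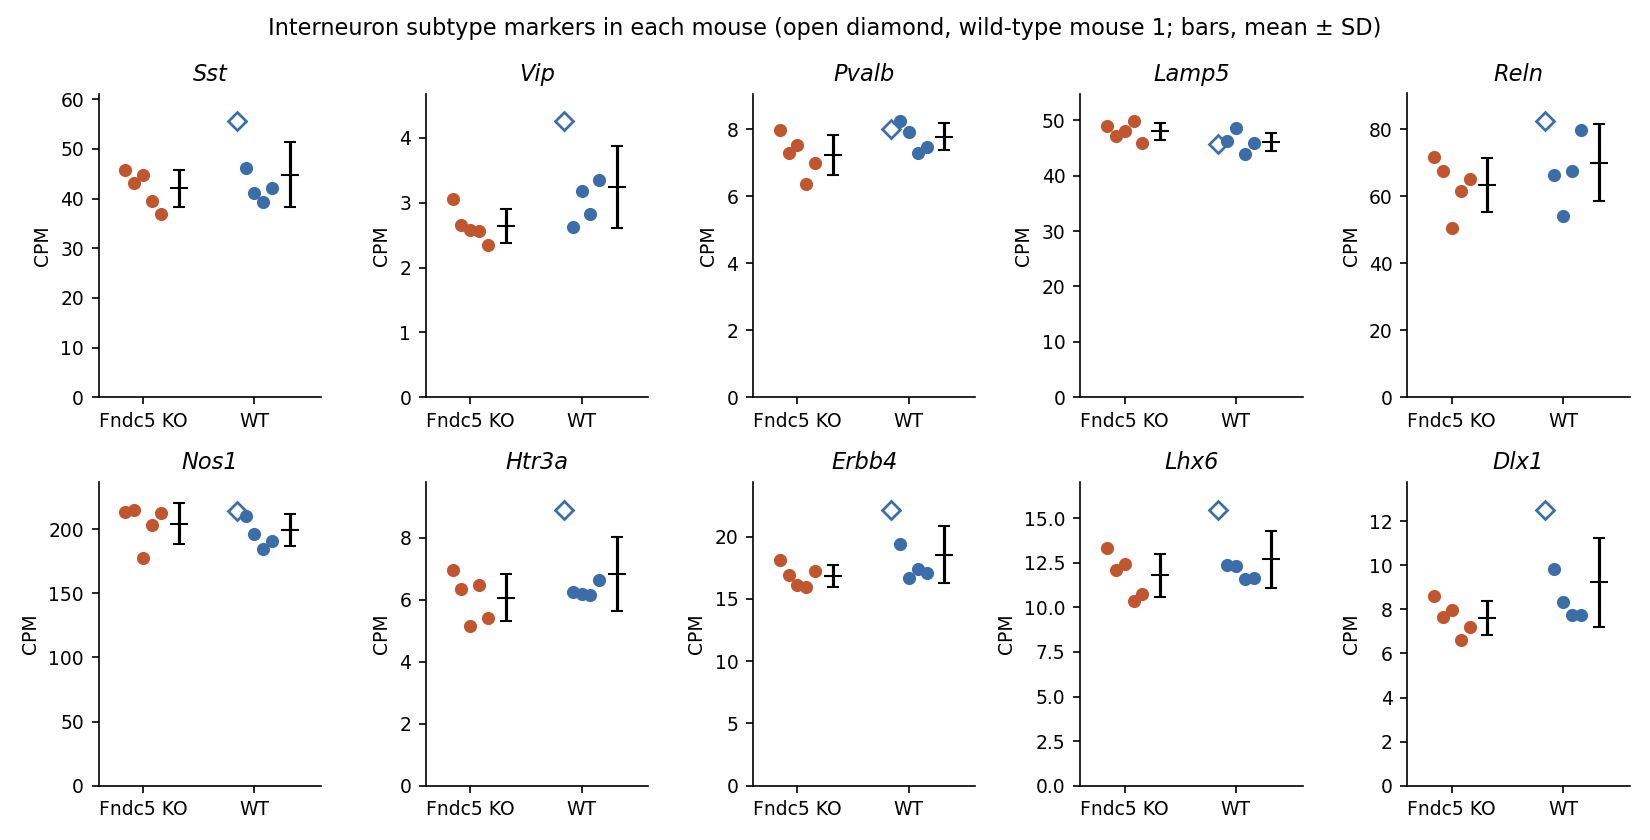
Level of each interneuron marker in CPM (y axis, from 0) in each of 5 Fndc5 knockout and 5 wild-type mice, with the mean and SD beside each group and wild-type mouse 1 as an open diamond. The genotypes overlap in every panel, and the diamond is the highest point for Sst, Vip, Reln, Htr3a, Erbb4, Lhx6 and Dlx1.

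Among the markers themselves, levels were ordered by CPM per kb of the longest principal transcript. Sst was the most abundant at 58.3 ± 5.15 CPM per kb in knockouts and 62.2 ± 9.07 CPM per kb in wild types (SD, n = 5 each). Lamp5 followed at 24.6 ± 0.785 in knockouts and 23.6 ± 0.853 in wild types, then Nos1 at 20.2 ± 1.57 in knockouts and 19.7 ± 1.24 in wild types, all in CPM per kb. The ranges of these 3 over the 10 mice did not overlap one another. Pvalb came next with 7.41 ± 0.617 CPM per kb in knockouts and 7.96 ± 0.406 in wild types. Reln had 5.41 ± 0.687 CPM per kb in knockouts and 5.98 ± 0.975 in wild types, and its range met those of Pvalb above and Lhx6 below. Lhx6 averaged 3.53 CPM per kb in knockouts and 3.79 in wild types, and Htr3a 2.92 in knockouts and 3.28 in wild types. Dlx1 (1.85 in knockouts, 2.24 in wild types), Vip (1.73 in knockouts, 2.12 in wild types) and Erbb4 (1.43 in knockouts, 1.58 in wild types) were the lowest in CPM per kb and overlapped one another. With the length of all annotated exons in place of 1 transcript, Nos1 (18.3 CPM per kb in knockouts, 17.9 in wild types) stood above Lamp5 (16.4 in knockouts, 15.7 in wild types). By that length Htr3a (2.91 in knockouts, 3.28 in wild types) stood above Reln (2.66 in knockouts, 2.95 in wild types). It also stood above Lhx6 (2.46 in knockouts, 2.64 in wild types). Vip was then the lowest, at 0.776 CPM per kb in knockouts and 0.954 in wild types.

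**Figure D2:**
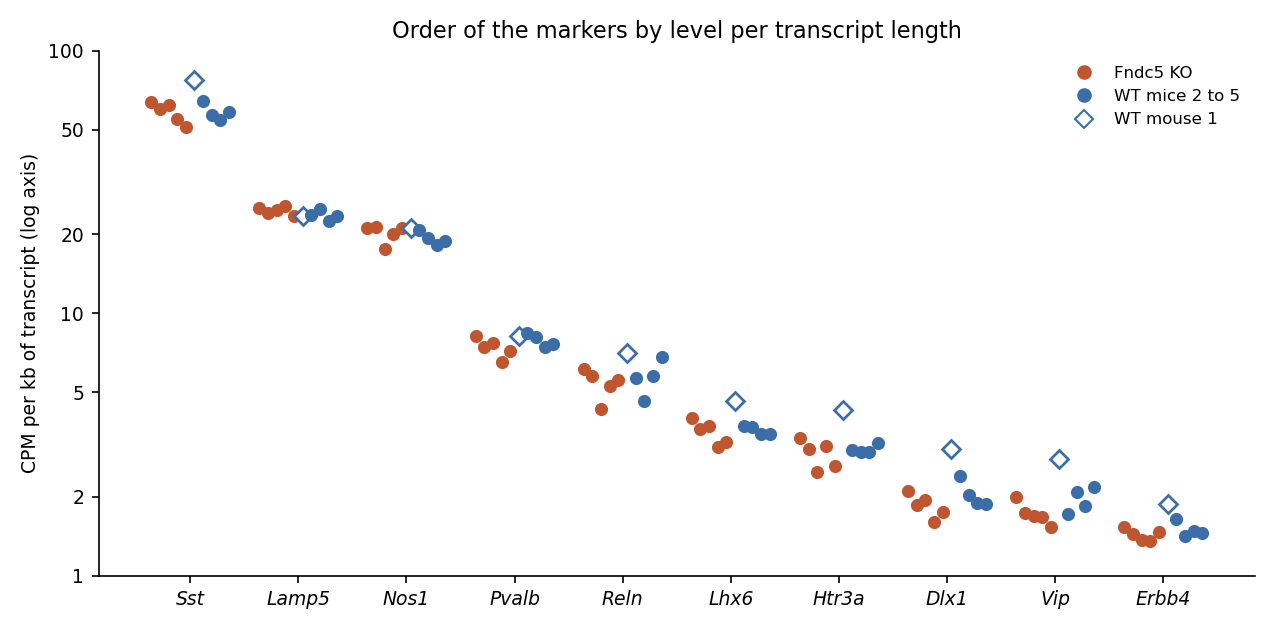
Level of each marker in CPM per kb of its longest principal transcript (y axis, log scale), ordered from left to right by the wild-type mean, with 5 knockout points left of 5 wild-type points. Sst lies above all others, Lamp5 and Nos1 form the next step, and Dlx1, Vip and Erbb4 share the bottom of the range.

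Sst and Vip encode the precursors of secreted peptides: somatostatin, which dampens release and firing through its own receptors, and vasoactive intestinal peptide, whose receptors raise cAMP. Their promoter windows, from RefSeq (GRCm38.p6), are shown because these are the 2 peptide genes of the set and because Sst is the textbook target of the cAMP response element. Each runs 5′ to 3′ from 250 bases before to 50 bases after a RefSeq transcript start. Capitals mark TGACG on either strand, which is one side of the palindromic element TGACGTCA.
Sst, chr16:23890795-23891094, minus strand: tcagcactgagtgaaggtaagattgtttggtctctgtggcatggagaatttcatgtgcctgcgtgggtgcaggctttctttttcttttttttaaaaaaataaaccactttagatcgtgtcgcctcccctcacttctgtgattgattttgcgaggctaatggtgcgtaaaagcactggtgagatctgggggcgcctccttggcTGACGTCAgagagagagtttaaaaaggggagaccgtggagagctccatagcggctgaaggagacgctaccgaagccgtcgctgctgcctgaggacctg
Vip, chr10:5638968-5639267, plus strand: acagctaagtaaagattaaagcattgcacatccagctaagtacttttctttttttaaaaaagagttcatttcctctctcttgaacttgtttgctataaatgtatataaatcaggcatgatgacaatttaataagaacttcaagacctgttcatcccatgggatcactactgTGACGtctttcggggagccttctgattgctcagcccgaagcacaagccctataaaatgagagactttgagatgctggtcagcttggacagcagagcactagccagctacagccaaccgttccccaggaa
The Sst window held the whole TGACGTCA, its first base 48 bases before the transcript start. In the Vip window TGACG began 79 bases before the start and was not followed by the rest of the palindrome. Of the 9 markers with a window in the RefSeq table, TGACGTCA was found in 1 (Sst) and TGACG in 3 (Sst, where it lies inside the whole element, Vip and Nos1). These counts take a gene with several windows once. Counted the same way, 2.03% of 27025 genes held TGACGTCA and 23.0% held TGACG, and of their 32851 windows 1.79% and 20.8% did. The letters of a TATA box (TATAAA, either strand) were found in 2 of the 9, Lhx6 and Vip, with 3 matches in the Vip window, and in 15.7% of all genes and 13.6% of all windows. These are matches of letters and say nothing on binding.

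Sst (chr16:23889573-23890958, minus strand) had 45.8, 43.2, 44.8, 39.5 and 37.0 CPM in knockout mice 1 to 5. Wild-type mice 1 to 5 had 55.6, 46.2, 41.1, 39.2 and 42.1 CPM. Wild-type mice 3 to 5 lay among the knockouts, mouse 2 just above them and mouse 1 far above. Knockout over wild type, Sst had a log2 fold change of -0.09 (SE 0.083, 95% interval -0.27 to 0.09; unadjusted p 0.295, adjusted p 0.869). That places knockout Sst at 93.9% of wild type (95% interval 83.1% to 106.2%). Without wild-type mouse 1 the log2 fold change was -7.6e-05 (95% interval -0.14 to 0.14), or between 90.9% and 110.0% of wild type. It was -0.12 without knockout mouse 1, the highest knockout. It was -0.05 without knockout mouse 5.

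Vip (chr10:5639218-5647617, plus strand) had 3.05, 2.66, 2.58, 2.56 and 2.35 CPM in knockout mice 1 to 5, and 4.26, 2.62, 3.18, 2.83 and 3.34 CPM in wild-type mice 1 to 5. The knockouts were close together, and 3 of 5 lay below every wild type. The wild types were spread, with mouse 1 highest and mice 2 and 4 within the knockout range. Its log2 fold change was the largest of the set at -0.30 (SE 0.13, 95% interval -0.58 to -0.01; unadjusted p 0.0407, adjusted p 0.788), or 81.3% of wild type (95% interval 66.7% to 99.0%). Without wild-type mouse 1 it was -0.18 (SE 0.12, unadjusted p 0.158, adjusted p 0.716), or 88.2% (73.7% to 105.6%). Vip was also the marker with the fewest reads, 61 to 140 counts per library, and at 61 counts the counting error alone is 12.8%.

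The receptors of these peptides were measured as a list of 9 genes with the related peptide Adcyap1. Of the 8 that passed the filter on low counts, 6 had lower and 2 had higher values in the knockout, and 0 passed the threshold (median log2 fold change -0.05). Sstr4, a somatostatin receptor, was at 7.69 ± 0.886 CPM in knockouts and 8.63 ± 1.18 CPM in wild types (log2 fold change -0.16, adjusted p 0.7996). Vipr1, a receptor for vasoactive intestinal peptide, was at 40.7 ± 1.97 CPM in knockouts and 38.8 ± 2.52 CPM in wild types (log2 fold change 0.07, adjusted p 0.835).

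Pvalb (chr15:78191114-78206400, minus strand) encodes parvalbumin, the calcium buffer of fast-spiking cells. It had 7.98, 7.29, 7.54, 6.37 and 7.004 CPM in knockout mice 1 to 5, and 7.999, 8.24, 7.91, 7.28 and 7.47 CPM in wild-type mice 1 to 5. The groups overlapped, 2 of 5 knockouts lay below every wild type, and here wild-type mouse 1 was not the highest. The log2 fold change of -0.10 (SE 0.079, 95% interval -0.27 to 0.06, adjusted p 0.839) was -0.09 without that library (SE 0.085, adjusted p 0.786). It was -0.06 without knockout mouse 4.

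Genes tied to parvalbumin cells by their potassium channels, release machinery and perineuronal matrix numbered 11, all tested. Of these, 8 had lower and 3 had higher values in the knockout, with a median log2 fold change of -0.09, and 0 passed the threshold. Bcan, the matrix proteoglycan brevican, was at 242.9 ± 12.9 CPM in knockouts and 224.4 ± 9.10 CPM in wild types (log2 fold change 0.11, SE 0.041, adjusted p 0.788), and at 0.12 without wild-type mouse 1. Hapln1, which links such proteoglycans to hyaluronan, was at 21.6 ± 1.64 CPM in knockouts and 24.1 ± 1.83 CPM in wild types (log2 fold change -0.16, SE 0.064, adjusted p 0.788), and at -0.12 without that mouse.

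Lamp5, Nos1 and Reln are associated with the neurogliaform and related classes, though none of them is confined to interneurons. Lamp5 (chr2:136052239-136069917, plus strand), a membrane protein of the lysosome family found in axon terminals, had 49.0, 47.1, 48.2, 49.9 and 46.0 CPM in knockout mice 1 to 5, and 45.8, 46.2, 48.6, 44.0 and 45.9 CPM in wild-type mice 1 to 5. It was the steadiest marker: its SD on the log2 scale over all libraries was 0.056, against 0.10 to 0.26 for the other 9. Of the knockouts, 2 of 5 lay above every wild type, and wild-type mouse 1 ranked 9th of the 10 libraries. Its log2 fold change was 0.06 (SE 0.041, 95% interval -0.03 to 0.15, adjusted p 0.820) with that library and 0.06 (SE 0.044) without it.

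Nos1 (chr5:117781032-117958840, plus strand), the neuronal enzyme that makes nitric oxide, had 213.5, 215.4, 177.3, 203.1 and 213.1 CPM in knockout mice 1 to 5. In wild-type mice 1 to 5 it had 214.1, 210.2, 196.5, 184.5 and 191.1 CPM. Knockout mouse 3 was the lowest and knockout mouse 2 the highest of all 10, so the knockouts spanned the wild types. Nos1 had a log2 fold change of 0.04 (SE 0.054, 95% interval -0.08 to 0.15, adjusted p 0.923), and 0.06 (SE 0.055) without wild-type mouse 1. Near 0, it moved by over 1.5 times with 8 of the 10 libraries, between 0.01 without wild-type mouse 4 and 0.08 without knockout mouse 3. Of 9 tested genes that make, bind or relay nitric oxide, 8 had lower and 1 had higher values in the knockout (median -0.07), and 0 passed. Gucy1a2, a subunit of the nitric oxide receptor, was at 22.0 ± 0.946 CPM in knockouts and 24.9 ± 2.55 CPM in wild types (log2 fold change -0.18, SE 0.064, adjusted p 0.788). Prkg2, a kinase switched on by the cGMP that this receptor makes, was at 2.11 ± 0.277 CPM in knockouts and 2.70 ± 0.638 CPM in wild types (log2 fold change -0.37, adjusted p 0.788).

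Reln (chr5:21884454-22344702, minus strand) encodes reelin, a secreted glycoprotein that guides neuron placement and tunes synapses through the receptors Vldlr and Lrp8. It had 71.7, 67.5, 50.5, 61.5 and 64.96 CPM in knockout mice 1 to 5, and 82.4, 66.4, 54.1, 67.5 and 79.7 CPM in wild-type mice 1 to 5. The third mouse of each genotype was the lowest of its group, and wild-type mice 1 and 5 were above every knockout. Reln had a log2 fold change of -0.14 (SE 0.10, 95% interval -0.36 to 0.07, adjusted p 0.822), and -0.08 (SE 0.099) without wild-type mouse 1. It was -0.23 (unadjusted p 0.0195, adjusted p 0.844) without wild-type mouse 3. Leaving out wild-type mouse 5 gave -0.09, and leaving out knockout mouse 3 gave -0.07. Unstranded counting could add reads of antisense transcripts that share 246 exon bases with Reln, 268 with Nos1 and 697 with Slc32a1, a GABA gene used further on, and these were not analysed here.

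Cajal-Retzius cells, which persist in the molecular layer, also make reelin, and 7 of 7 of their other markers were tested. These 7 summed to 45.1, 39.0, 34.4, 39.0 and 37.7 CPM in knockout mice 1 to 5 and to 43.9, 39.7, 35.7, 38.6 and 40.2 CPM in wild-type mice 1 to 5. The defining factor Trp73 was present in every library (5.25 to 8.07 CPM), while Lhx5 had at most 18 counts. The summed level was lowest in the third mouse of each genotype, as Reln was. By the mean log2 level of the 7, knockout mouse 5 (-0.18 from the wild-type mean) was lower than knockout mouse 3 (-0.15). Much of the sum came from Cacna2d2 (14.6 to 20.4 CPM) and Ndnf (9.46 to 10.7 CPM), and Ndnf is also listed among other interneuron markers. The part of Cajal-Retzius cells in the Reln values was not tested. Of 7 reelin pathway genes 4 had lower and 3 had higher values in the knockout (median -0.01), and 0 passed. Without wild-type mouse 1 there were 6 lower and 1 higher (median -0.0086), and again 0 passed. At an unadjusted edgeR p under 0.05 there was 1 with all libraries, lower, where 3.75% of all genes tested were. Without wild-type mouse 1 there were 2, both lower, where 4.15% of all genes tested were. Lrp8 was at 147.1 ± 5.87 CPM in knockouts and 156.9 ± 7.23 CPM in wild types (log2 fold change -0.09, SE 0.040, adjusted p 0.788). The adaptor Crk was at 154.7 ± 4.95 CPM in knockouts and 162.2 ± 7.29 CPM in wild types (log2 fold change -0.07, adjusted p 0.7996).

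Htr3a and Erbb4 are receptors at the cell surface. Htr3a (chr9:48899213-48911099, minus strand), the subunit of the serotonin-gated ion channel that marks interneurons of the caudal eminence, had 6.96, 6.34, 5.16, 6.47 and 5.43 CPM in knockout mice 1 to 5. Wild-type mice 1 to 5 had 8.91, 6.25, 6.19, 6.17 and 6.65 CPM. Wild-type mice 2 to 5 lay within 6.17 and 6.65 CPM, inside the knockout range, and mouse 1 was far above them. The log2 fold change of -0.17 (SE 0.12, 95% interval -0.42 to 0.08, adjusted p 0.812) was -0.05 (SE 0.098, adjusted p 0.905) without mouse 1. Its partner subunit Htr3b had 0 or 1 count per library. Of 7 tested genes for other serotonin receptors 5 had lower and 2 had higher values in the knockout, and 0 passed. Htr6 was at 3.72 ± 0.516 CPM in knockouts and 2.86 ± 0.459 CPM in wild types (log2 fold change 0.37, SE 0.13, adjusted p 0.788), and Htr2a at 3.32 ± 0.392 CPM in knockouts and 4.06 ± 0.716 CPM in wild types (-0.29, SE 0.13, adjusted p 0.788).

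Erbb4 (chr1:68032186-69108059, minus strand), the neuregulin receptor of interneurons, through which excitatory input onto parvalbumin cells is strengthened, had 18.1, 16.95, 16.1, 15.97 and 17.2 CPM in knockout mice 1 to 5. Wild-type mice 1 to 5 had 22.2, 19.4, 16.7, 17.4 and 17.1 CPM. Wild-type mice 1 and 2 were above every knockout, and wild-type mice 3 to 5 were within the knockout range. Erbb4 had a log2 fold change of -0.14 (SE 0.075, 95% interval -0.30 to 0.02; unadjusted p 0.0886, adjusted p 0.7996), and -0.06 (SE 0.063, adjusted p 0.806) without wild-type mouse 1. The 9 tested neuregulin and ErbB genes split into 4 lower and 5 higher values in the knockout (median 0.0051), and 0 passed. The ligand Nrg2 was at 16.5 ± 0.847 CPM in knockouts and 15.8 ± 1.06 CPM in wild types (log2 fold change 0.06, adjusted p 0.882), and the related receptor Egfr at 7.85 ± 0.357 CPM in knockouts and 8.26 ± 0.553 CPM in wild types (-0.07, adjusted p 0.885).

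The last pair are transcription factors. Lhx6 (chr2:36081953-36105408, minus strand), which specifies and is kept by parvalbumin and somatostatin cells, had 13.3, 12.1, 12.4, 10.4 and 10.8 CPM in knockout mice 1 to 5. Wild-type mice 1 to 5 had 15.5, 12.4, 12.3, 11.6 and 11.6 CPM. Wild-type mice 2 to 5 lay inside the knockout range, and mouse 1 lay above every other library. Lhx6 had a log2 fold change of -0.10 (SE 0.090, 95% interval -0.29 to 0.09, adjusted p 0.859), and -0.02 (95% interval -0.19 to 0.15, adjusted p 0.964) without wild-type mouse 1. It was -0.06 without knockout mouse 4.

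Dlx1 (chr2:71528113-71533981, plus strand), a homeobox factor kept by many adult interneurons, had 8.61, 7.65, 7.97, 6.60 and 7.20 CPM in knockout mice 1 to 5, and 12.5, 9.81, 8.32, 7.75 and 7.73 CPM in wild-type mice 1 to 5. Of the knockouts, 3 of 5 lay below every wild type, and wild-type mice 1 and 2 lay above every knockout. Dlx1 had a log2 fold change of -0.28 (SE 0.12, 95% interval -0.54 to -0.02; unadjusted p 0.0390, adjusted p 0.788), or 82.5% of wild type (95% interval 68.8% to 98.9%). Without wild-type mouse 1 it was -0.14 (SE 0.097, unadjusted p 0.165, adjusted p 0.722), or 90.7% (78.7% to 104.6%). The antisense gene Dlx1as shares 335 exon bases with Dlx1 on the other strand and had 362 to 626 counts per library. Since the strand setting of the counting is not given, reads of the shared stretch may belong to either gene. Dlx1as was at 13.6 ± 0.646 CPM in knockouts and 13.9 ± 0.483 CPM in wild types (log2 fold change -0.04, SE 0.058, adjusted p 0.931).

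Of 13 other tested genes of the Dlx family or of factors that mark the medial or caudal eminence, 10 had lower and 3 had higher values in the knockout (median -0.10), and 0 passed. Their median was -0.0031 without wild-type mouse 1, with 8 lower and 5 higher. Dlx6os1, a noncoding transcript of the Dlx5 and Dlx6 locus, was at 10.2 ± 0.731 CPM in knockouts and 11.6 ± 1.43 CPM in wild types (log2 fold change -0.18, SE 0.086, adjusted p 0.788), and at -0.13 without wild-type mouse 1. Maf, a factor of medial eminence interneurons, was at 9.35 ± 0.445 CPM in knockouts and 10.3 ± 0.518 CPM in wild types (-0.14, SE 0.067, adjusted p 0.789), and at -0.11 without that mouse. Of 9 tested genes for other interneuron peptides, calcium-binding proteins and surface markers, 5 had lower and 4 had higher values, and 0 passed (median -0.09). Cnr1, the cannabinoid receptor of cholecystokinin cells, was at 130.5 ± 9.96 CPM in knockouts and 148.7 ± 14.2 CPM in wild types (log2 fold change -0.19, SE 0.062, unadjusted p 0.00795, adjusted p 0.788). Without wild-type mouse 1, its highest library, it was -0.13 (unadjusted p 0.0251, adjusted p 0.683). Penk, the enkephalin precursor, was at 16.3 ± 2.08 CPM in knockouts and 18.0 ± 3.00 CPM in wild types (-0.15, SE 0.11, adjusted p 0.818), and at -0.24 without wild-type mouse 1.

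**Figure D3:**
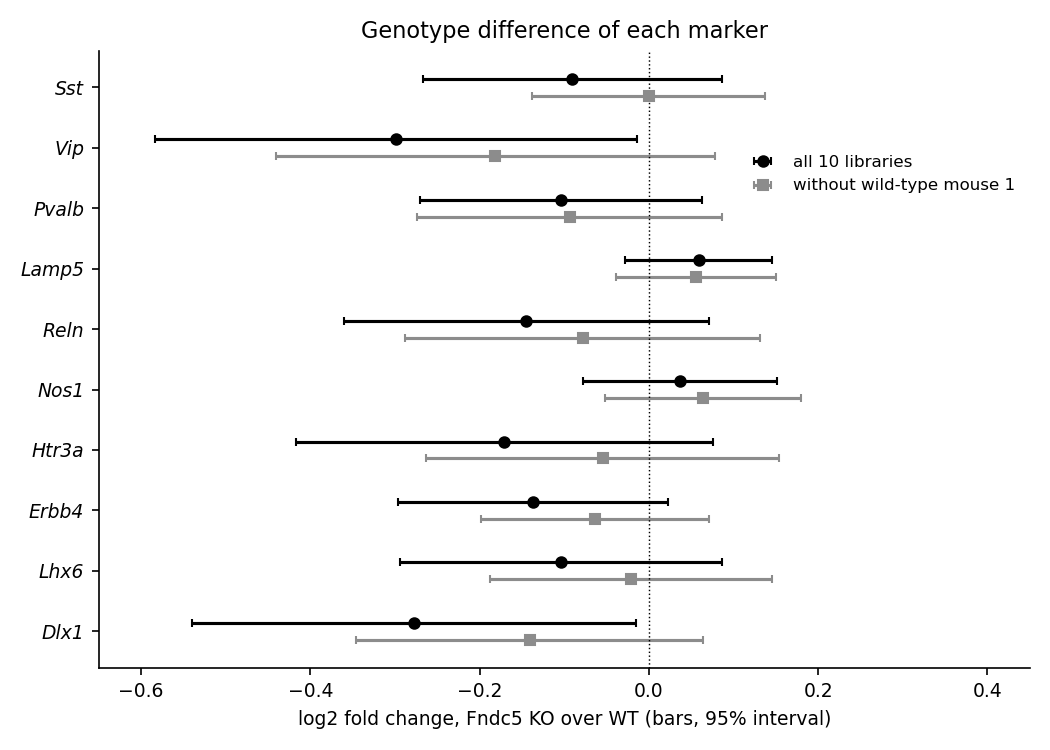
Log2 fold change of each marker, knockout over wild type (x axis, bars are 95% intervals), with all 10 libraries (black circles) and without wild-type mouse 1 (grey squares). Without that library 9 of the 10 estimates sit closer to 0, Nos1 sits further from it, and the intervals of all 10 then include 0.

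The spread of the markers over mice followed single animals. Averaged over the 10 markers on the log2 scale, relative to the mean of wild types 2 to 5, knockout mice 1 to 5 were at 0.09, -0.02, -0.11, -0.12 and -0.12, and wild-type mouse 1 was at 0.32. Wild types 2 to 5 were at 0.06, -0.02, -0.06 and 0.02. Knockout mouse 1 was the highest knockout for 8 of 10 markers and wild-type mouse 1 the highest wild type for 8 of 10. Compared with the mean of wild types 2 to 5, wild-type mouse 1 had 1.49 times the Dlx1 level, 1.42 times the Vip level, 1.41 times Htr3a, 1.32 times Sst, 1.29 times Lhx6, 1.26 times Erbb4 and 1.23 times Reln. For Nos1 the ratio was 1.09, for Pvalb 1.04 and for Lamp5 0.991.

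Markers of several other cells also set wild-type mouse 1 apart from wild types 2 to 5, some low and some high. The 12 granule neuron markers summed to 2330 to 2498 CPM in knockouts, to 2131 CPM in wild-type mouse 1 and to 2410 to 2504 CPM in wild types 2 to 5, so that library was the lowest of all 10. Knockout mouse 1 was the lowest knockout in this sum, at 2330 CPM. Oligodendrocyte markers (8 tested) summed to 1446 to 1807 CPM in knockouts, 1454 CPM in wild-type mouse 1 and 1562 to 1688 CPM in wild types 2 to 5. Markers of striatal and other projecting GABA neurons (8 tested) summed to 214.2 to 256.7 CPM in knockouts, 212.9 CPM in wild-type mouse 1 and 240.4 to 261.7 CPM in wild types 2 to 5. Endothelial and mural markers (8 tested) summed to 221.9 to 275.5 CPM in knockouts, 233.3 CPM in wild-type mouse 1 and 258.6 to 283.5 CPM in wild types 2 to 5. Hilar mossy cell markers (7 tested) summed to 169.6 to 218.6 CPM in knockouts, 168.0 CPM in wild-type mouse 1 and 189.2 to 214.5 CPM in wild types 2 to 5. By mean log2 level wild-type mouse 1 ranked 7th of 10 for the mossy cell markers. Markers of CA1 and CA3 pyramidal neurons (11 tested) had their highest sum there, with 313.4 to 352.3 CPM in knockouts, 363.0 CPM in wild-type mouse 1 and 329.5 to 349.1 CPM in wild types 2 to 5. Their mean log2 level in that library ranked 6th of 10, and the Cajal-Retzius sum given above was the second highest there. Astrocyte and microglia sums in that library were slightly below those of wild types 2 to 5. Sums for oligodendrocyte precursors, thalamus and habenula, and choroid plexus lay within the range of wild types 2 to 5. The part of tissue make-up in the marker levels of that library was not tested.

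**Figure D4:**
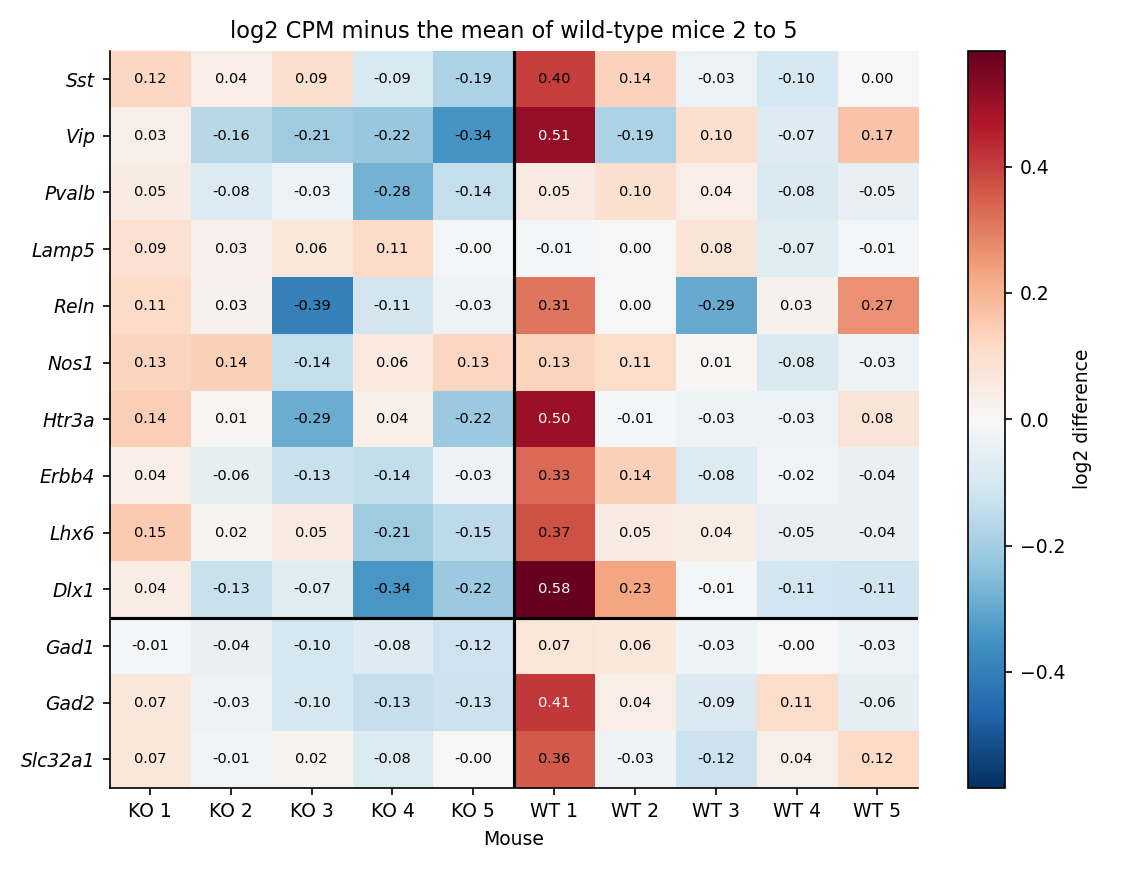
Log2 CPM of each marker and of Gad1, Gad2 and Slc32a1 (rows) in each knockout and wild-type mouse (columns), minus the mean of wild-type mice 2 to 5; red is higher and blue lower. The column of wild-type mouse 1 is red for every row except Lamp5, and Pvalb, Nos1 and Gad1 are pale there.

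Genes that all GABA neurons share were used as a yardstick within each library. Whether granule neurons or other cells of this tissue also hold these transcripts was not tested. Gad1 and Gad2 make GABA and Slc32a1 loads it into vesicles, and their mean log2 CPM was 6.57 ± 0.0552 in knockouts and 6.67 ± 0.134 in wild types (SD, n = 5 each), with wild-type mouse 1 highest at 6.90. Gad1 had a log2 fold change of -0.08 (SE 0.035, adjusted p 0.788), Gad2 of -0.16 (SE 0.076, adjusted p 0.789) and Slc32a1 of -0.08 (SE 0.071, adjusted p 0.867). Leaving out wild-type mouse 1, these were -0.07, -0.06 and 0.0005. The 3 genes did not move together in that library. Against the mean of wild types 2 to 5, it had 1.33 times the Gad2 level, 1.28 times Slc32a1 and 1.05 times Gad1. The ratios of that library therefore depend on which of the 3 are used. Relative to this yardstick, the log2 ratio of Sst was -1.18 ± 0.0956 in knockouts and -1.20 ± 0.110 in wild types, and that of Lhx6 was -3.02 ± 0.103 in knockouts and -3.02 ± 0.0919 in wild types. Pvalb, Erbb4, Reln and Htr3a likewise differed by -0.06 to -0.01 in the ratio, less than their SD in either group.

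For 4 markers the mean ratio differed by over 0.1 between genotypes, Vip and Dlx1 lower and Nos1 and Lamp5 higher in the knockout. The yardstick itself differed by -0.10 between genotypes (-0.05 without wild-type mouse 1), and this enters every ratio. Nos1 and Lamp5 on their own had log2 fold changes of only 0.04 and 0.06. The log2 ratio of Vip was -5.18 ± 0.0898 in knockouts and -4.99 ± 0.199 in wild types, a difference of -0.18 (-0.14 without wild-type mouse 1). For Dlx1 it was -3.65 ± 0.1004 in knockouts and -3.49 ± 0.201 in wild types, a difference of -0.16 (-0.10 without that mouse). Nos1 was at 1.101 ± 0.113 in knockouts and 0.964 ± 0.113 in wild types, a difference of 0.14 (0.11 without that mouse). Lamp5 was at -0.986 ± 0.0661 in knockouts and -1.15 ± 0.163 in wild types, a difference of 0.16 (0.10 without that mouse). In wild-type mouse 1 the ratio was the highest of the 10 libraries for Vip, Htr3a and Dlx1 and the lowest for Pvalb, Nos1 and Lamp5. These ratios are descriptions with no test, and for all 10 markers the ranges of the genotypes overlapped.

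**Figure D5:**
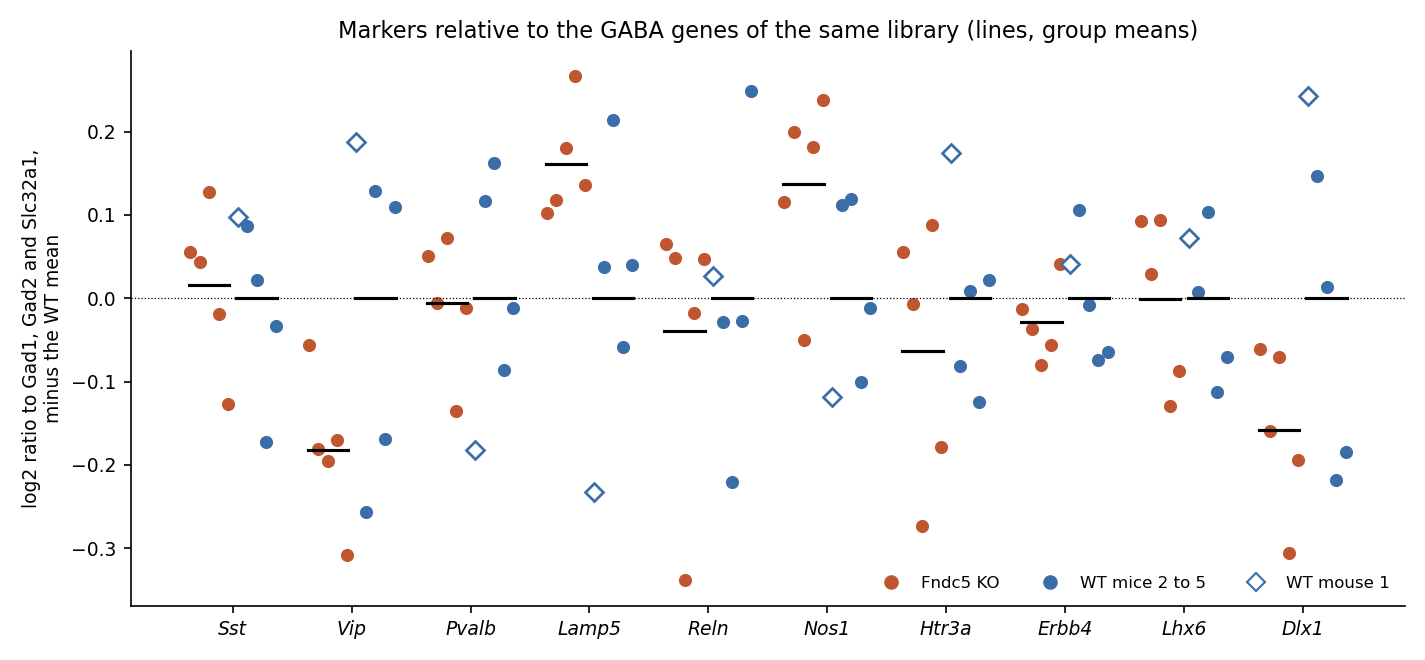
Log2 ratio of each marker to the mean of Gad1, Gad2 and Slc32a1 in the same library (y axis, minus the wild-type mean), with knockout points left of wild-type points, group means as lines and wild-type mouse 1 as an open diamond. The knockout mean lies below the wild-type mean by 0.18 for Vip and 0.16 for Dlx1 and above it by 0.14 for Nos1 and 0.16 for Lamp5, and the points overlap for every marker.

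For the 6 markers with an SD of at least 0.15 on the log2 scale, the closest profiles among the tested genes were listed by the root mean square difference over the 10 libraries, after each gene's mean was removed. Sst and Lhx6, both genes of medial eminence interneurons, were each other's nearest gene (difference 0.059), and Nr1d2 was the next for Sst (0.066) and Lgi2 the next for Lhx6 (0.067). When wild-type mouse 1 was left out, Lhx6 ranked 9th and Nr1d2 3rd of 13981 genes for Sst, and Sst ranked 7th and Lgi2 38th for Lhx6. Nearest to Htr3a were Cpne2 (0.069) and Cacna2d2 (0.089), nearest to Reln were Smoc1 (0.098) and Megf11 (0.0998), and nearest to Vip were Resp18 (0.115) and Metrnl (0.116). Without wild-type mouse 1 these ranked, in the same order, 23rd and 2nd for Htr3a, 16th and 19th for Reln, and 70th and 55th for Vip. Dlx1 was nearest to Mtmr4 (0.117) and to Lhx6 (0.120), which without wild-type mouse 1 ranked 140th and 30th. Libraries shared by all genes, wild-type mouse 1 among them, enter every one of these differences.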

How the data were processed

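RNA was measured by bulk sequencing in dentate gyri of 5 Fndc5 knockout and 5 wild-type mice, 1 library each, grouped by the sample titles. The authors deposited raw read counts per gene symbol, not normalized. The submitters' processing notes name mm10, Cufflinks 2.2.1 and STAR 2.5.1b without their roles; how strand and multi-mapped reads were handled is not stated in the labels. The 10 markers, the other gene lists and the tests were chosen with earlier results of these data known.

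Genes were filtered with filterByExpr, scaled by TMM and compared with edgeR 4.0.16 (glmQLFit, glmQLFTest) in R 4.3.3, with Benjamini-Hochberg adjustment over the 14867 genes tested (14926 without wild-type mouse 1). Standard errors are the absolute log2 fold change over the root of F. Libraries of one genotype all differed by more than sampling noise, the closest having a chi-square per degree of freedom of 4.64. On simulated counts for this comparison (14813 genes tested), 53.0% of 66 genes changed 1.25-fold, 87.9% of 66 changed 1.5-fold and 97.0% of 66 changed 2-fold were recovered, and 95.2% of intervals held the true value. The simulation held many more changed genes than passed here, which eases the adjusted threshold, and had no shift shared across a library. These shares therefore do not give the odds of calling a marker in the data.

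Coordinates and exon lengths are from GENCODE M21 (GRCm38, the mm10 build), with the longest APPRIS principal transcript per gene; promoter windows are from RefSeq. Other named genes are Fndc5, Gad1, Gad2, Slc32a1, the 2 genes of each pathway list with the smallest p, and the nearest profiles, for which predicted genes and pseudogenes were passed over and a prior count of 2 was used. Dlx1as, Htr3b, Prox1, Trp73 and Lhx5 were named after their values were seen. Reln was left out of the Cajal-Retzius markers. Alternatives were DESeq2 1.42.0, a stricter filter (1 CPM in at least 5 libraries) or none, scaling by the upper quartile, a block for mouse number, limma 3.58.1 voom with sample quality weights, and each library left out.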

Additional observations from a re-analysis of the deposited data

Results flagged for a closer look

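A search for single libraries far from the other 4 of their genotype covered 26 sets of 5 values (the 10 markers, Fndc5, the mean of the markers and the mean of Gad1, Gad2 and Slc32a1). It found 2, where chance gives about 1.3. Both were wild-type mouse 1. Htr3a was at 8.91 CPM there and at 6.17 to 6.65 CPM in the other wild types, and Lhx6 was at 15.5 CPM there and at 11.6 to 12.4 CPM in the others. Without that library the log2 fold change was -0.05 for Htr3a and -0.02 for Lhx6.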

How the results depend on the processing

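In 16 alternatives 0 of 10 markers passed the threshold and the direction of each marker was kept, with Sst at -7.6e-05 without wild-type mouse 1. The median of the 10 markers ranged from -0.16 (without knockout mouse 1) to -0.06 (without wild-type mouse 1), and was -0.10 with sample quality weights, where wild-type mouse 1 had the lowest weight, 0.629. The markers with an unadjusted p under 0.05 numbered 0 to 4, all lower. There were 0 with quality weights, where 3.87% of all genes tested were lower at that level. There were also 0 without knockout mouse 2, 4 or 5 (5.1%, 3.34% and 3.61% of all genes lower) or wild-type mouse 1 (4.15%). Without wild-type mouse 3 there were 3 (3.35% of all genes lower). With the replicate block in edgeR there were 4, where 6.1% of all genes tested were lower. These were Vip (p 0.0276), Dlx1 (p 0.00578), Reln (p 0.00497) and Erbb4 (p 0.0374). The smallest adjusted p of a marker in any alternative was 0.294 (Reln with the replicate block, log2 fold change -0.14, SE 0.043). The count of all genes past the threshold was 1 with all libraries, 3 with the DESeq2 Wald test, 8 (0.0538% of genes) with the replicate block, and between 1 and 3 when each library was dropped in turn (2 without knockout mouse 2, 3 without wild-type mouse 1); the cause was not tested. Same-numbered mice correlated at 0.209, 0.204, 0.108, 0.00901 and 0.0282 in their deviations from the group means. That leaves 2 pairs under the set limit of 0.1, so mouse number was treated as a name only. Knockout mice 1 to 3 correlated best with the wild type of their own number, and mice 4 and 5 with another. The library names alternate wild type and knockout by number, and the labels do not say whether a number marks a pair. Mouse 1 was the highest of each genotype for 8 of 10 markers. The fit without wild-type mouse 1 kept knockout mouse 1, and what this does to the estimates was not tested. With 5 mice a genotype, the intervals above set what size of change could be seen, and Vip is further limited by its counts.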
